A study of Mus musculus with 12 samples.

Results

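The 9 genes described here are genes that mark microglia, the resident macrophages of the brain, in the amygdala of mice tested for anxiety-like behavior. They were chosen by name from the 47729 genes of the deposited count table, and all 9 (Cx3cr1, P2ry12, Tmem119, Csf1r, Aif1, C1qa, C1qb, C1qc and Trem2) were found there through their Ensembl identifiers in GENCODE M21. The samples were bilateral amygdala from 12 age-matched female C57/BL6 mice, an inbred strain, with 1 mRNA library per mouse. Between 9 and 11 weeks of age each mouse was tested in the light/dark (LD) box, in an elevated plus maze (EPM) and in a 3-chamber social interaction test (SIT). The labels put 3 mice (3, 7 and 12) in a ‘less anxious’ state, 4 (1, 4, 8 and 11) in an ‘anxious’ state and 4 (2, 6, 9 and 10) in a ‘more anxious’ state, whereas mouse 5 has no state. The study predicted these states from a principal component of the same sequencing data, so the groups are not independent of expression, and neither treatment nor genotype separates them. Comparisons with the behavior measures do not carry that dependence.

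Microglia scan the tissue with motile processes, respond to signals that neurons release, take up debris and take part in the removal of synapses. Their survival in the adult brain depends on signaling through the receptor tyrosine kinase Csf1r, which binds the growth factors Csf1 and Il34. Cx3cr1 is the receptor of the neuronal chemokine fractalkine, P2ry12 is an ADP receptor that directs processes toward injured cells, and Tmem119 is a membrane protein used as a marker of resident microglia. Aif1, also called Iba1, is a calcium-binding and actin-binding protein and the usual antibody target for staining microglia. C1qa, C1qb and C1qc encode the 3 chains of C1q, which starts the classical complement cascade and tags synapses. Trem2 is a lipid-sensing receptor that signals through its partner Tyrobp. Other macrophages of the brain borders also express several of these genes. In bulk tissue, fewer microglia and less RNA per microglial cell cannot be told apart.

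In GRCm38 the 3 C1q genes lay side by side on chromosome 4, all on the minus strand, with C1qb at chr4:136880129-136886187, C1qc at chr4:136889804-136893065 and C1qa at chr4:136895917-136898803. Trem2 (chr17:48346401-48354147, plus strand) and Aif1 (chr17:35170991-35176068, minus strand) shared chromosome 17. Of the others, 3 were at chr9:119901616-120069879 (Cx3cr1, minus strand), chr3:59216272-59262871 (P2ry12, minus strand) and chr5:113793729-113800516 (Tmem119, minus strand). Reads were counted over the transcripts of each whole gene. Csf1r shared 873 exon bases with Hmgxb3 on the opposite strand, Cx3cr1 shared 78 with the antisense gene Gm33858 and P2ry12 shared 9 with Med12l, while the other 6 members shared no exon base with another gene. The libraries were made with a stranded kit, and whether the counting used the strand is not given in the sources used here.

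Promoter windows were read from RefSeq (GRCm38.p6), which held an entry used here for 6 of the 9 members (Aif1, C1qb, C1qc, Cx3cr1, P2ry12 and Trem2). The windows, from 250 bases before to 50 bases after the start site, were searched on both strands for GAGGAA, the core letters bound by PU.1, the transcription factor that specifies the macrophage lineage. It was found in 4 of 6 windows (66.7%), against 28.3% of all 32851 promoter windows of the same length. The 250 bases before the start site are shown for these 4 genes, on the strand of the gene and with the match (GAGGAA or its reverse complement TTCCTC) in capitals. They span chr17:35176053-35176302 for Aif1, chr4:136886201-136886450 for C1qb, chr4:136892915-136893164 for C1qc and chr17:48346151-48346400 for Trem2.
Aif1: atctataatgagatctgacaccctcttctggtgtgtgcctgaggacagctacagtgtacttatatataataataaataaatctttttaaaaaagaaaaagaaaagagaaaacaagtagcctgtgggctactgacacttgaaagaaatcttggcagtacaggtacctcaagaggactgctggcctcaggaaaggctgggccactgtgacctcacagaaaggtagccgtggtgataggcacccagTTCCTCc
C1qb: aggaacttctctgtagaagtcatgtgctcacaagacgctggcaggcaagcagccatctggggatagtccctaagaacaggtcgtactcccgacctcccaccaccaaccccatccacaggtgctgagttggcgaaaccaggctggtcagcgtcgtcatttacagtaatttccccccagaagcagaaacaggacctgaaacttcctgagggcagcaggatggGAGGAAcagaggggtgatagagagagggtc
C1qc: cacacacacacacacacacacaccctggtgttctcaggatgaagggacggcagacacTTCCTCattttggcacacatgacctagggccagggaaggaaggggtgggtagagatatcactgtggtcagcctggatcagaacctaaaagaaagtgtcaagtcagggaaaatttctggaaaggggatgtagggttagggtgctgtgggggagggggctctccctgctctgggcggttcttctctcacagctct
Trem2: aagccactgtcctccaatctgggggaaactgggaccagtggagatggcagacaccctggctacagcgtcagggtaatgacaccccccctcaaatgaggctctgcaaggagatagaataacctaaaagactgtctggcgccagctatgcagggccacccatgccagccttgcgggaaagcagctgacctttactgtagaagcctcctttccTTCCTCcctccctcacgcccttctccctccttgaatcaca

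The match began 7 bases before the start site in Aif1, 30 before it in C1qb, 193 before it in C1qc and 40 before it in Trem2, and GAGGAA read in the direction of transcription in C1qb and against it in the others. The longer form GAGGAAGT, which contains the core, was present in 1 of 6 windows (C1qc) and in 3.2% of all windows. A composite of PU.1 with an IRF factor, GGAA and GAAA separated by 2 bases of any kind, was in none of the 6 and in 2.72% of all. The MEF2 letters, CTA and TAG separated by 4 bases of any kind, were present in 1 of 6, Cx3cr1, starting 67 bases before the start site, and in 3.69% of all windows. A match of letters is a description of the sequence, and no binding was measured here.

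Every member was detected in every mouse. The total estimated count per mouse ran from 31745630 to 45142355, and TMM normalization factors ran from 0.967 to 1.04. Mouse 5, which the study left out as an outlier, had a read in 23768 genes, against 26378 to 28196 in the other mice. Among the members, Aif1 had the fewest estimated counts (135 to 266 per mouse) and Csf1r the most (2218 to 3638). Neuronal markers were far more abundant than microglial ones, with a summed level of 10 neuronal genes between 5409 and 6946 CPM (counts scaled to a common library size) in the 11 grouped mice, against 248 to 352 CPM for the 9 members.

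Divided by exon length, the C1q chains led the list. C1qb had a mean of 37.2 and C1qa of 36.9 CPM per kb over 12 mice, and these neighbors in the order were not separated, since C1qb was the higher of the pair in 7 of 12 mice. C1qc followed with 20.2 CPM per kb. P2ry12 and Csf1r came next with 12.6 and 12.5 CPM per kb and again changed places between mice (P2ry12 higher in 7 of 12). Cx3cr1 stood at 9.47, Tmem119 at 6.90, Aif1 at 3.25 and Trem2 at 2.27 CPM per kb. Apart from the 2 pairs named, each member exceeded the next one down in 12 of 12 mice. The genes that encode secreted complement chains were thus above the surface receptors per length in each library, and the staining marker Aif1 was near the bottom. The length was the union of all annotated exons of a gene (1040 bases for C1qa, 4946 for Trem2), which can exceed that of the expressed transcript. The same lengths were used in each mouse, so the order depends on them. By mean CPM alone, Csf1r (72.4) and Cx3cr1 (42.7) were above C1qb (40.5), C1qc (39.0) and C1qa (38.4).

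The spread of the members between mice was near that of genes of similar level. Their coefficient of variation (CV) over 12 mice ran from 8.20% (C1qb) to 19.0% (Aif1), with a median of 12.4%, while the 9210 genes in the same range of CPM had a median CV of 13.8%. For 6 of 9 members the CV was below that median, and 40.0% of the 9210 genes varied less than the median member. Counting error alone gives a CV between 1.93% (Csf1r) and 7.34% (Aif1). The highest mouse exceeded the lowest by 1.34 times for C1qb and by 1.81 times for Aif1, the extremes among the 9.

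**Figure D1:**
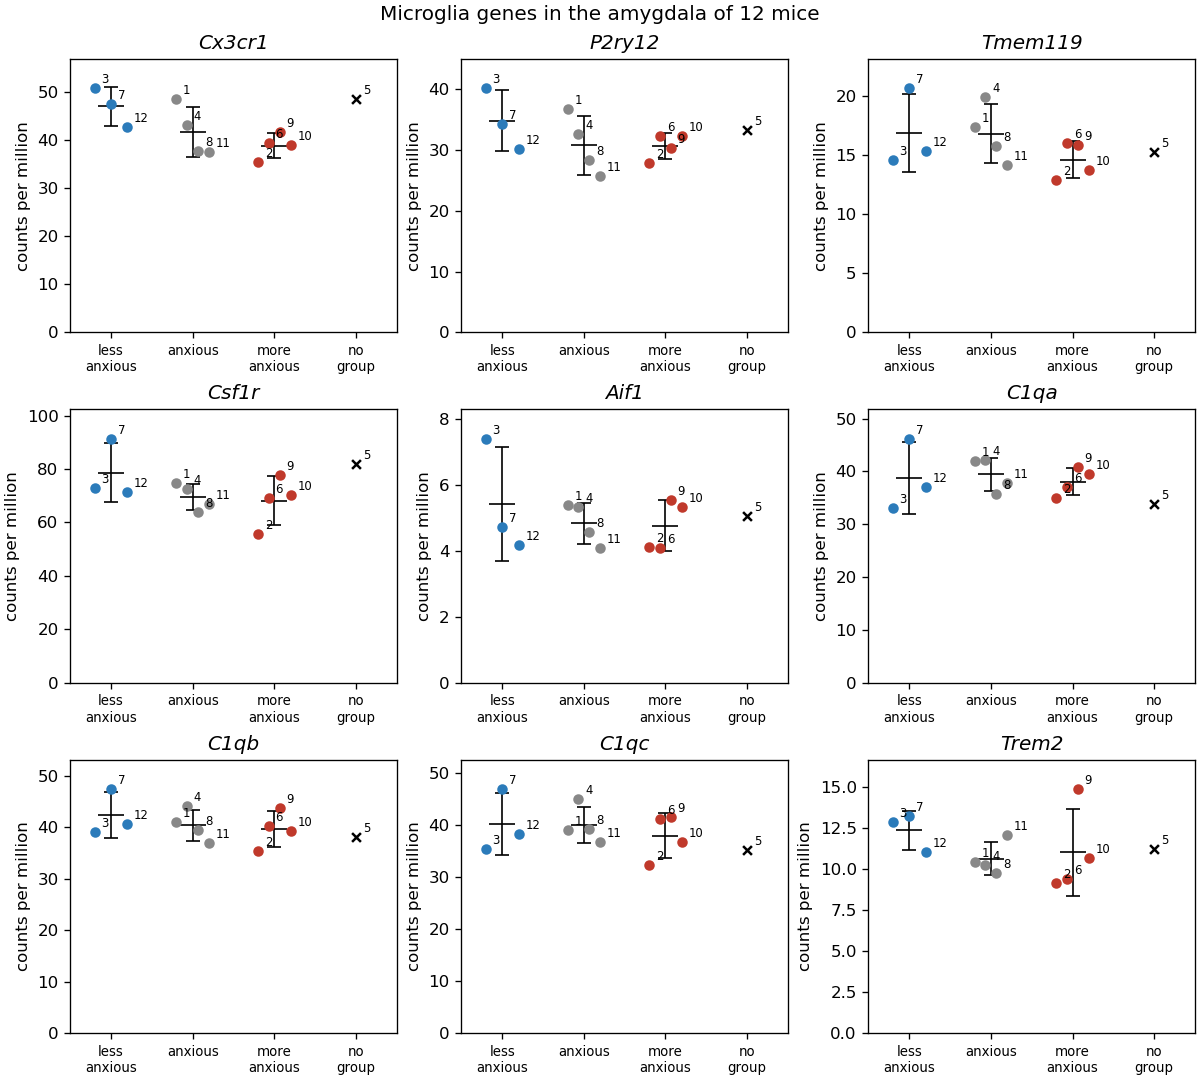
Level of each of the 9 microglia genes (CPM, linear axis from 0) in each mouse, by predicted anxiety state. Points are mice with their numbers, horizontal bars with whiskers are group means ± SD, and the cross is mouse 5, which has no state. Only for Cx3cr1 do the less anxious and more anxious mice not overlap, at 42.7 to 50.8 against 35.4 to 41.7 CPM.

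Cx3cr1 was at 50.8, 47.6 and 42.7 CPM in less anxious mice 3, 7 and 12. It was at 48.6, 43.1, 37.7 and 37.5 CPM in anxious mice 1, 4, 8 and 11, and at 35.4, 39.4, 41.7 and 38.9 CPM in more anxious mice 2, 6, 9 and 10. All 4 more anxious mice were below all 3 less anxious mice, while the anxious mice spanned both. The group means were 47.0 ± 4.06 (SD, n = 3), 41.7 ± 5.26 (n = 4) and 38.9 ± 2.57 CPM (n = 4). In the edgeR quasi-likelihood fit the log2 difference between more and less anxious mice was -0.26 ± 0.11 (SE), with an interval of 95% from -0.50 to -0.02. The unadjusted p was 0.0362 and the Benjamini-Hochberg adjusted p 0.523, so the difference was not called. Without mouse 7 the log2 difference was -0.20 (unadjusted p 0.191 in edgeR), the weakest when a mouse was left out. Of the 9 members, Cx3cr1 alone showed no overlap in this direction, against 4.78% of the 15892 genes with a mean of at least 1 CPM.

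P2ry12, the ADP receptor, was at 40.1, 34.2 and 30.2 CPM in the less anxious mice, at 36.7, 32.6, 28.3 and 25.6 CPM in the anxious mice and at 27.8, 32.3, 30.3 and 32.3 CPM in the more anxious mice. The values of the groups overlapped, and mouse 3 was the highest of all 12. Its ratio to Cx3cr1 stayed within a narrow range, with Cx3cr1 at 1.20 to 1.46 times P2ry12 by CPM. More and less anxious mice differed by a log2 difference of -0.17 ± 0.14 (SE), with adjusted p = 0.790 by edgeR. Without mouse 3 it was -0.06.

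Csf1r, on the plus strand at chr18:61100598-61132149, was at 72.9, 91.4 and 71.5 CPM in the less anxious mice, at 74.6, 72.6, 64.1 and 67.0 CPM in the anxious mice and at 55.5, 69.3, 77.9 and 70.1 CPM in the more anxious mice. Mouse 7 was the highest and mouse 2 the lowest, and the groups overlapped. The log2 difference of more against less anxious mice was -0.21 ± 0.12 (SE, adjusted p = 0.699 by edgeR) and shrank to -0.02 without mouse 7. Tmem119 showed the same extremes, with 20.7 CPM in mouse 7 and 12.9 CPM in mouse 2. Its other values were 14.6 and 15.4 CPM in less anxious mice 3 and 12, 17.4, 20.0, 15.8 and 14.2 CPM in the anxious mice, and 16.1, 15.9 and 13.7 CPM in more anxious mice 6, 9 and 10. For Tmem119 the log2 difference was -0.24 ± 0.14 (SE, adjusted p = 0.702 by edgeR) and -0.09 without mouse 7.

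The complement chains had the smallest estimates of the 9 between these states. C1qa was at 33.0, 46.2 and 37.1 CPM in the less anxious mice, at 42.0, 42.1, 35.8 and 37.9 CPM in the anxious mice and at 35.0, 37.0, 40.9 and 39.5 CPM in the more anxious mice. Less anxious mice 3 and 7 thus held both the lowest and the highest value of the 12. The log2 difference of more against less anxious mice was -0.03 ± 0.12 (SE) for C1qa, with an interval of 95% from -0.29 to 0.22. For C1qb, which ran from 35.4 to 47.5 CPM, it was -0.11 ± 0.11, and for C1qc, which ran from 32.4 to 47.0 CPM, it was -0.11 ± 0.12. Without mouse 7 the log2 differences were 0.16 for C1qa, -0.01 for C1qb and -0.0051 for C1qc. The adjusted p-values of the chains in edgeR, with all mice, were 0.972, 0.838 and 0.856.

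Trem2, the lipid receptor, was at 12.8, 13.2 and 11.01 CPM in the less anxious mice, at 10.4, 10.3, 9.76 and 12.1 CPM in the anxious mice and at 9.13, 9.35, 14.9 and 10.7 CPM in the more anxious mice. The highest and the lowest value of the 12 both came from more anxious mice (9 and 2). Aif1 was at 7.40, 4.72 and 4.17 CPM in the less anxious mice, at 5.38, 5.31, 4.58 and 4.08 CPM in the anxious mice and at 4.11, 4.08, 5.54 and 5.32 CPM in the more anxious mice. Mouse 3 stood above the other mice for Aif1, which otherwise lay between 4.08 and 5.54 CPM. The log2 difference of more against less anxious mice was -0.14 ± 0.16 (SE, adjusted p = 0.866) for Trem2 and -0.12 ± 0.20 (adjusted p = 0.921) for Aif1, by edgeR. Both estimates took the other sign with 1 mouse left out, Trem2 to 0.07 without mouse 7 and Aif1 to 0.09 without mouse 3.

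Set side by side, the 9 members had a negative log2 difference between more and less anxious mice, with a median of -0.14, whereas 49.5% of the 26963 genes tested had a negative one and the median of all was 0.0037. None of the 9 was called at an adjusted p under 0.05, where edgeR called 0.0445% of all genes, and 1 of 9 (Cx3cr1) was lower at an unadjusted p under 0.05, where 3.62% of all genes were. DESeq2 also called 0 of 9. The members share their mice and move together, so their common sign is not 9 separate observations. The median was -0.02 without mouse 7, -0.06 without mouse 2 and -0.26 without mouse 12. The intervals of 95% give the uncertainty of each estimate within the fit. They are not adjusted for the number of genes, and the states are not independent of expression. On the log2 scale the widest reached from -0.55 to 0.31 (Aif1) and the narrowest from -0.34 to 0.12 (C1qb).

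**Figure D2:**
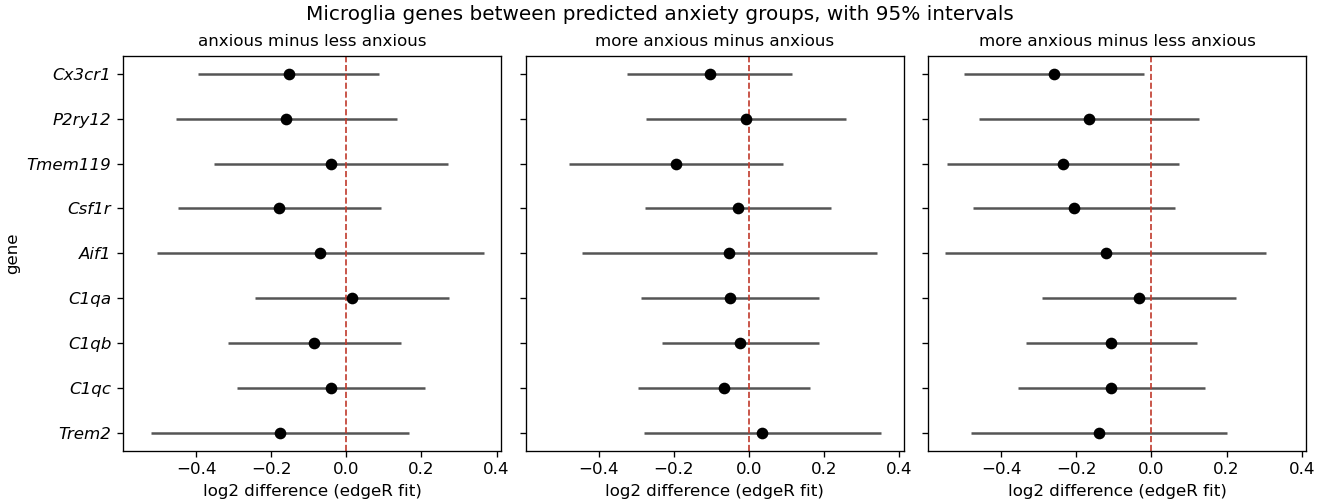
Log2 difference of each microglia gene between predicted anxiety states in the edgeR fit with the first principal component as a covariate, in 3 panels for the 3 pairs of states. Points are estimates, lines are 95% intervals and the dashed line marks no difference. Each interval includes 0 except that of Cx3cr1 for more against less anxious mice, which ends at -0.02 and is not adjusted for the number of genes tested.

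The other pairwise comparisons of states gave smaller median differences. Across the 3 states (an edgeR test with 2 degrees of freedom) 0 of 9 members were called, the smallest p was 0.103 for Cx3cr1, and 0.00742% of all genes were called. Between anxious and less anxious mice 0 of 9 were called, with 0 of 9 at an unadjusted p under 0.05 and 0.00371% of all genes called. Here the median log2 difference was -0.08, with 8 of 9 negative, and the values ran from -0.18 (Csf1r) to 0.02 (C1qa). That median was 0.0064 with 3 of 9 negative without mouse 7, -0.22 without mouse 12 and -0.17 without the covariate. Between more anxious and anxious mice 0 of 9 were called, again with 0 of 9 at an unadjusted p under 0.05, and 0% of all genes were called. The median was -0.05, and Tmem119 (-0.19 ± 0.13 SE) and Trem2 (0.04 ± 0.15 SE) marked the ends, while without mouse 2 the median was 0.02 with 2 of 9 negative. DESeq2 called 0 of 9 in each of these. The fits carry the first principal component as a covariate, along which Aif1 and Trem2 sloped by -0.14 and -0.12 in log2 CPM per SD and Tmem119 by 0.09.

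**Figure D3:**
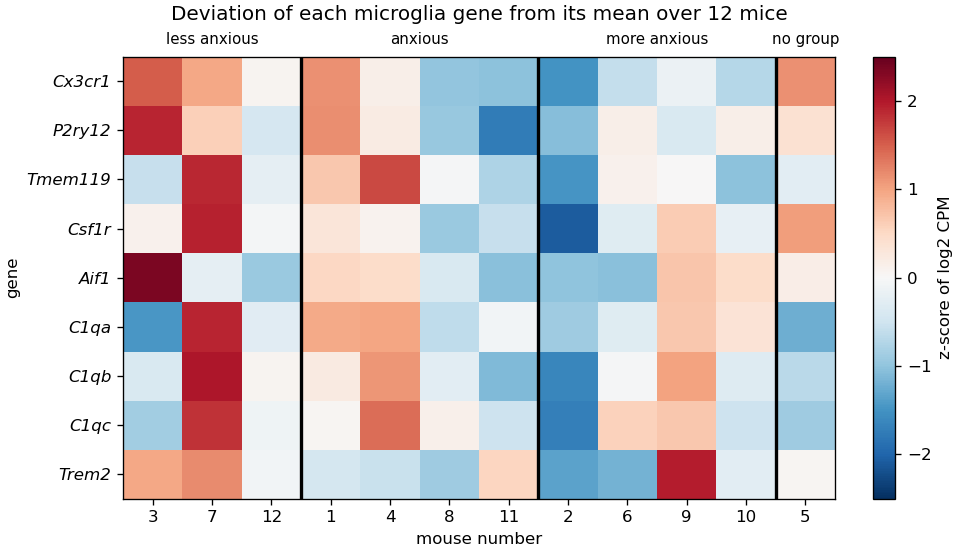
Deviation of each microglia gene (rows) in each mouse (columns, by mouse number and predicted state) from its own mean over 12 mice, as the z-score of log2 CPM, with red above and blue below the mean. Mouse 2 is below the mean for 9 of 9 genes and mouse 7 above it for 8, while mouse 3 is high for Cx3cr1, P2ry12 and Aif1 and low for the C1q chains.

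Single mice carried much of the variation. In less anxious mouse 7 the summed level of the 9 members was 352 CPM, the highest, and 8 of 9 were above their mean. In more anxious mouse 2 the sum was 248 CPM, the lowest, and 0 of 9 were above their mean. The sums in the remaining mice lay between 272 and 315 CPM. The group means of the sum were 317 ± 32.0 (SD, n = 3) in less anxious, 294 ± 24.1 (n = 4) in anxious and 284 ± 26.8 CPM (n = 4) in more anxious mice, and the ranges overlapped. Mouse 5 had a sum of 303 CPM, inside the range of the other mice.

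Across the 12 mice the members tended to move together, as a description with no test. Pearson’s r of log2 CPM was positive for 35 of 36 pairs, with a median of 0.472. The C1q chains were close to each other, at 0.794 to 0.933. Tmem119 had an r of 0.91 to C1qc, 0.89 to C1qb and 0.73 to C1qa. Cx3cr1 and P2ry12 were close to each other (0.86) and less so to the C1q chains (0.072 to 0.449). Aif1 followed P2ry12 (0.77) and not C1qa (-0.057). Leaving out mice 3 and 7 gave a median r of 0.526.

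The ratios within a mouse do not depend on the library total. The SD over mice of the log2 ratio of C1qa to C1qb was 0.088, where counting error gives 0.054, that of C1qb to C1qc was 0.060, where it gives 0.054, and that of C1qa to C1qc was 0.095, where it gives 0.054. The SD of Cx3cr1 to P2ry12 was 0.093, close to that of C1qa to C1qc. The ratio of P2ry12 to C1qa had an SD of 0.22, where counting error gives 0.057, and ranged from 0.676 in mouse 11 to 1.22 in mouse 3. Cx3cr1 was at 1.54 times C1qa in mouse 3 and at 0.985 times in mouse 10. Aif1 was at 0.102 times C1qa in mouse 7 and at 0.224 times in mouse 3, with an SD of the log2 ratio of 0.30, where counting error gives 0.11. Mouse 3 held the highest ratio to C1qa for Cx3cr1, P2ry12, Aif1 and Trem2. Beside this, its summed level of 10 markers of border macrophages, the macrophages of meninges and vessels, was 26.2 CPM, against 10.3 to 28.4 CPM in the 11 grouped mice, and the part of these cells in the ratios was not tested.

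Among 15883 other genes with a mean of at least 1 CPM, the 10 whose log2 CPM was most like the mean z-score of the members included Otop2 (r = 0.919), Ppp2r2c (0.901), Rps6ka2 (0.857), Lzts1 (0.852), Pwwp2b (0.847), Prkcb (0.843), Mfap4 (0.836), Rapgef4 (0.822) and Fcrls (0.807), over 12 mice. Of these, Fcrls, an Fc receptor-like protein of microglia, was on a list of microglia genes. The points share their libraries. The 30 other microglia genes had a median r of 0.518, with 27 positive, against 0.027 for all genes compared. Lists of other cell types also ran along with the members, with a median r of 0.539 for oligodendrocytes, 0.449 for endothelium and pericytes, 0.374 for astrocytes and 0.076 for neurons.

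None of the behavior measures gave a called member. Against percent time in light, 0 of 9 were called (0.00742% of all genes) and 0 of 9 had an unadjusted p under 0.05. The same counts of 0 and 0 held for percent distance in light, percent open-arm time and total maze entries, in each of which 0% of all genes were called. P2ry12 came nearest, with 0.11 ± 0.05 (SE) on the log2 scale per SD of time in light (unadjusted p 0.0657, adjusted p = 0.9997 by edgeR) and 0.10 ± 0.05 per SD of distance in light (unadjusted p 0.0635, adjusted p = 0.848 by edgeR). Cx3cr1 followed with 0.09 ± 0.05 per SD of distance in light (unadjusted p 0.0904, adjusted p = 0.863 by edgeR). Mouse 6, labeled more anxious, had the highest time in light (46.6%), distance in light (41.9%) and open-arm time (29.2%). Without mouse 6 the slopes per SD of time in light were 0.21 for P2ry12 (unadjusted p 0.0081, adjusted p 0.298) and 0.20 for Cx3cr1 (unadjusted p 0.0055, adjusted p 0.272) in edgeR. Those per SD of distance in light had an unadjusted p of 0.0376 for P2ry12 and 0.0155 for Cx3cr1 without this mouse, by edgeR. Of the mice left out, mouse 6 gave the smallest p for both genes. The largest p for time in light came without mouse 3 for P2ry12 (slope 0.08, unadjusted p 0.152 in edgeR). For Cx3cr1 it came without mouse 2 (0.05, unadjusted p 0.364 in edgeR). With 1 mouse left out, edgeR called 0 to 16 of all genes for time in light. In each of these 4 measures 7 of 9 members had a positive slope, with a median of 0.03 per SD, whereas 49.7% to 51.3% of all genes had a negative one. The sign rested on mouse 2. Without it the median was -0.0075 for time in light (6 of 9 negative), -0.03 for distance in light (6 of 9), -0.00065 for open-arm time (5 of 9) and -0.06 for entries (9 of 9). DESeq2 called 0 of 9 members in each measure.

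The box:zone ratio of the SIT, the time near the stranger’s cup relative to the time in the wider zone, gave an unadjusted p under 0.05 for Aif1 alone among the 9 members. Its log2 level differed by 0.19 ± 0.08 (SE) per SD of the ratio in the first 3 min (10 mice, unadjusted p 0.0237), by 0.20 ± 0.07 in the first 5 min (11 mice, unadjusted p 0.0105) and by 0.19 ± 0.07 in the first 10 min (11 mice, unadjusted p 0.0138), in edgeR. The adjusted p-values were 0.557, 0.627 and 0.515, so none was called. The 3 ratios overlap in time and are not separate observations. All 3 rested on mouse 3, which had both the highest ratio at 10 min (2.62) and the highest Aif1 level, and without it the 10 min slope was 0.08 (unadjusted p 0.483 in edgeR). The slopes without mouse 3 at 3 and 5 min were 0.12 (unadjusted p 0.154) and 0.11 (unadjusted p 0.253) in edgeR. Beside these, 9 of 10 border macrophage genes had a positive slope on each ratio, with medians of 0.10, 0.18 and 0.23 per SD and 1 of 10 at an unadjusted p under 0.05 each time, and their part in the Aif1 slopes was not tested.

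For the ratio at 3 min 0 of 9 members were called, where 0.015% of 26651 genes were, and 1 of 9 was higher at an unadjusted p under 0.05, where 4.54% of all genes were. The shares of all genes were 0.0111% called and 3.54% higher at an unadjusted p under 0.05 for 5 min, and 0.0223% and 4.29% for 10 min, with 0 of 9 and 1 of 9 members each time. The C1q chains had slopes near 0 at 10 min, at -0.07 ± 0.05 (C1qa), -0.03 ± 0.04 (C1qb) and -0.05 ± 0.05 (C1qc), with SE. Csf1r was at 0.01 ± 0.06 and Cx3cr1 at 0.06 ± 0.05 per SD. DESeq2 gave unadjusted p-values of 0.0156, 0.0028 and 0.0041 for Aif1 at 3, 5 and 10 min, with adjusted p-values of 0.292, 0.242 and 0.191.

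**Figure D4:**
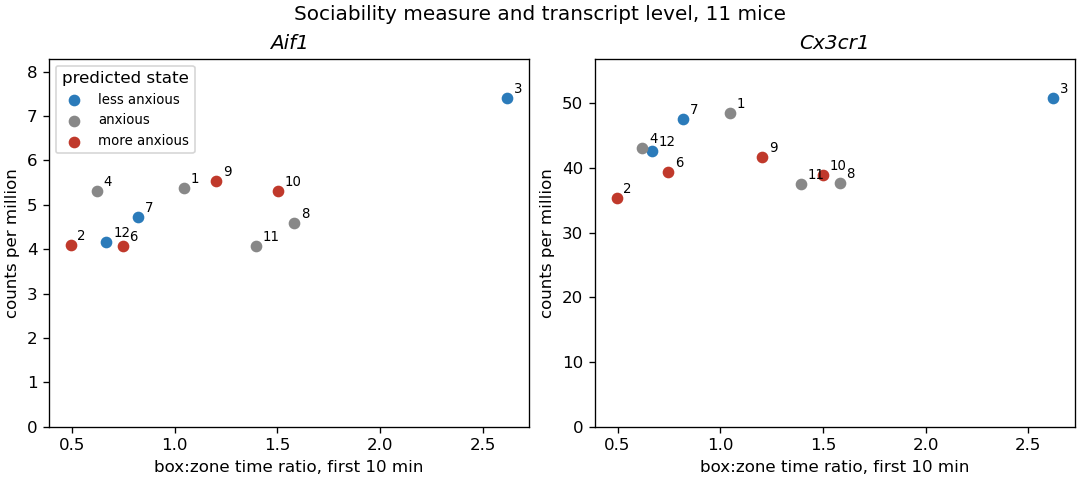
Level of Aif1 (left) and Cx3cr1 (right), in CPM, against the box:zone time ratio in the first 10 min of the social test, in the 11 mice with a predicted state (colors, numbers are mice). Mouse 3, at a ratio of 2.62, stands apart from the other mice on the horizontal axis and is the highest for both genes at 7.40 and 50.8 CPM.

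The 30 other microglia genes behaved much like the 9 members. Between more and less anxious mice 28 of 30 had a negative log2 difference, with a median of -0.18, and 0 of 30 were called by edgeR. Those at an unadjusted p under 0.05 were 5 of 30, all lower: Ptprc, Itgb2, Tgfbr1, Siglech and Fcrls. Over all genes tested 3.62% were lower at that p. Ptprc, which encodes the leukocyte phosphatase CD45, was at 10.1 ± 1.93 CPM (SD, n = 3) in less anxious, 11.5 ± 4.0 CPM (n = 4) in anxious and 6.18 ± 2.06 CPM (n = 4) in more anxious mice, so the anxious mice had the highest mean. The log2 difference of more against less anxious mice was -0.60 ± 0.24 (SE, adjusted p = 0.478 by edgeR). Itgb2, an integrin subunit, had a log2 difference of -0.60 ± 0.21 (SE, adjusted p = 0.411 by edgeR). Tgfbr1, a receptor for the TGF-beta that maintains microglial identity, had one of -0.36 ± 0.11 (SE, adjusted p = 0.330 by edgeR). At the other end Fcer1g, a signaling adaptor, was at 0.09 ± 0.13.

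Among the ligands and growth signals of microglia, 0 of 12 were called and 8 of 12 were negative (median -0.08). The ends of that list were Cd200r1 (-1.30 ± 0.90 SE, at or under 0.272 CPM in the 11 grouped mice) and the enzyme Nt5e, which makes adenosine (-0.60 ± 0.28), against Entpd1 (0.08 ± 0.46), which degrades ATP, and the neuronal ligand Cd200 (0.13 ± 0.18). In the signaling list of Trem2 and Csf1r, 0 of 12 were called and 8 of 12 were negative (median -0.10), with the phosphatase Ptpn6 (-0.44 ± 0.36) and Pik3cg (-0.27 ± 0.20) lowest and Vav1 (0.22 ± 0.20) and Ms4a6d (0.32 ± 0.35) highest. The complement list had 0 of 18 called and 13 of 18 negative (median -0.17), while C1rb was at 0 counts in all 12 mice, and 1 of 18 (C3) was lower at an unadjusted p under 0.05. C3, the central complement protein, was at 1.19 ± 0.811 CPM (SD, n = 3) in less anxious, 0.747 ± 0.310 CPM (n = 4) in anxious and 0.287 ± 0.231 CPM (n = 4) in more anxious mice (more against less anxious log2 difference -2.14 ± 0.64 SE, adjusted p = 0.342 by edgeR). The C1 inhibitor Serping1 was at -0.51 ± 0.54, Csmd2 at 0.20 ± 0.20 and the protease C1s1 at 0.97 ± 0.56. For genes of activated and disease-associated microglia 0 of 27 were called and 20 of 27 were negative (median -0.13), and 1 of 27 was at an unadjusted p under 0.05. This was Itgax, an integrin subunit, which was higher in more anxious mice (log2 difference 1.29 ± 0.46 SE, unadjusted p 0.0146, adjusted p 0.426 by edgeR). The ends there were the chemokine Ccl4 (-0.89 ± 0.65) and Gpnmb (-0.50 ± 0.31) against Tnf (1.82 ± 1.51) and Ccl2 (1.97 ± 1.24), of which Ccl4, Tnf and Ccl2 were at or under 0.250 CPM in each grouped mouse.

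Estimates for astrocyte, oligodendrocyte and vascular markers had the same sign as those of the members. Between more and less anxious mice the log2 difference was negative for 8 of 8 astrocyte genes (median -0.24), 9 of 9 genes of endothelium and pericytes (-0.20) and 8 of 8 oligodendrocyte genes (-0.13), while 3 of 6 genes of oligodendrocyte precursors were negative (median 0.02) and 7 of 10 neuronal genes were positive (median 0.17). edgeR called 0 genes of these lists, and those at an unadjusted p under 0.05 were 2 of 8 for astrocytes, 4 of 9 for endothelium and pericytes, 1 of 8 for oligodendrocytes, 2 of 6 for oligodendrocyte precursors and 4 of 10 for neurons, against 8.83% of all genes in either direction. The summed astrocyte level was 3671 to 4379 CPM in less anxious and 3139 to 3617 CPM in more anxious mice, without overlap. That of endothelium and pericytes was 265 to 319 against 201 to 240 CPM, also without overlap. Gene by gene, 3 of 8 for astrocytes and 2 of 9 for endothelium and pericytes had no overlap in this direction. Among genes with a mean of at least 1 CPM the share was 4.78%, and no share was computed for such sums. The summed neuronal level was 5409 to 5753 CPM in less anxious and 5564 to 6946 CPM in more anxious mice. Border macrophage genes were negative in 8 of 10 (median -0.62) and 2 of 10 were lower at an unadjusted p under 0.05, with a summed level of 15.8 to 26.2 against 10.3 to 28.4 CPM. Genes of choroid plexus and ependyma were negative in 5 of 7 (median -0.41) and summed to 25.8 to 29.2 CPM in less anxious and 13.7 to 23.6 CPM in more anxious mice, without overlap. Of these, 2 of 7 were lower at an unadjusted p under 0.05, Clic6 and Kcnj13 (log2 difference -3.26 ± 0.77 SE). Gene by gene 1 of 7 (Kcnj13) had no overlap. The study named Kcnj13 among the most downregulated genes of its high ‘anxiety’ mice, so its place on the list is not independent of these states. Markers of blood leukocytes summed to 7.51 to 9.35 CPM in less anxious and 5.14 to 9.63 CPM in more anxious mice. Their part in the values of the 9 members was not tested.

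**Figure D5:**
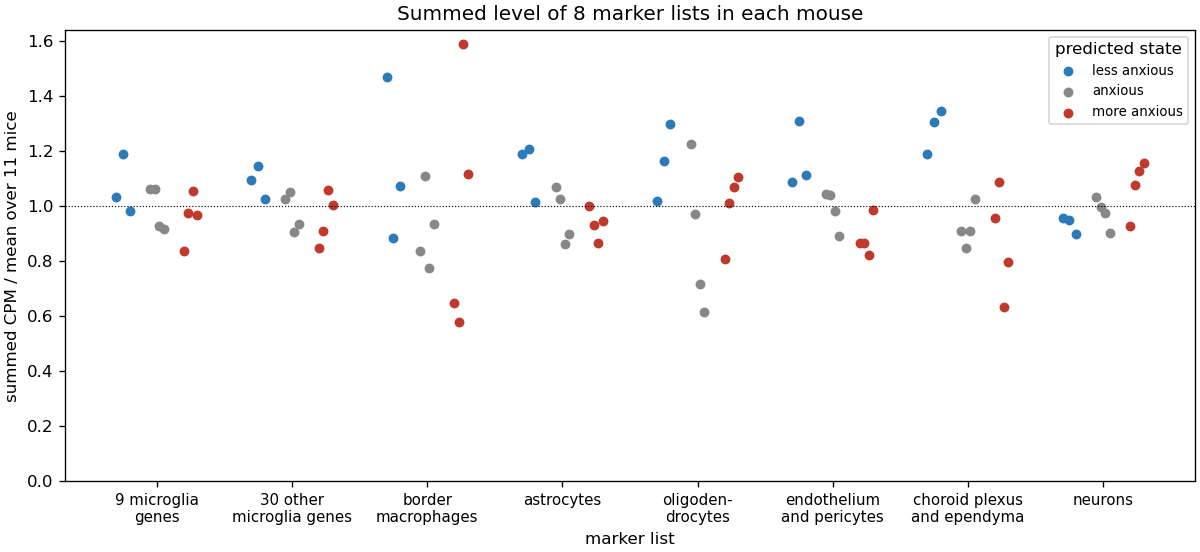
Summed level of 8 marker lists in each mouse, divided by its mean over the 11 mice with a predicted state (colors as in the legend, linear axis from 0). The less anxious mice lie above the more anxious mice without overlap for astrocytes, for endothelium and pericytes and for choroid plexus and ependyma, while for the 9 microglia genes their ranges of 291 to 352 and 248 to 312 CPM overlap.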

How the data were processed

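Amygdala mRNA of 12 female mice was sequenced in a single run with single-end reads of 75 bp, 1 stranded library per mouse. Per the labels and the methods of the study, the reads were trimmed with cutadapt and checked by STAR alignment to mm10, and Salmon estimates of transcript abundance were collapsed to genes with tximport. The authors deposited these estimated counts (expected counts) without normalization, and all were whole numbers. Tool versions and the annotation release are not given in the sources used here. Sums over transcripts can split reads that overlapping genes share.

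Of the 47729 genes, 47310 (99.1%) had an entry in GENCODE M21 (GRCm38), which gave names, positions and exon lengths. CPM used TMM factors over 12 mice, and log2 CPM a prior count of 2. Groups came from the labels. The main test was edgeR’s quasi-likelihood F-test (robust, genes with at least 10 reads in total, the first principal component of the 11 grouped mice as covariate), with Benjamini-Hochberg adjustment over all genes and calls under 0.05. Behavior measures were standardized and fitted alone in 11 mice (10 for the 3 min ratio, which mouse 4 lacks). Intervals of 95% use the degrees of freedom of edgeR’s own test. The p-values measure the spread between single mice, and counting intervals would cover counting error only. Outlying values within groups of 4 were looked for with Dixon’s ratio. The procedures were tested on simulated data.

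The members and lists were chosen with earlier results of these data known. Genes named beside the members were, by rule, the 10 most like them by r, and from each list of other microglia genes the 2 highest and 2 lowest log2 differences of more against less anxious mice, of which a few are not reported here. Tgfbr1, Siglech, Itgax and C1rb were named after their values were seen. The alternatives were DESeq2, other size factors and count filters, no robust fit, the covariate left out, added or taken from log2 CPM, ranks in place of values, mouse 5 included and each mouse left out. Fits ran in edgeR 4.0.16 and DESeq2 1.42.0 under R 4.3.3, and summaries in pandas 2.3.3, scipy 1.17.1 and numpy 2.4.6 under Python 3.11.15, with figures from matplotlib 3.10.9. No sequence is printed for Csf1r or for the members without an entry in the RefSeq promoter table.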

Additional observations from a re-analysis of the deposited data

Results flagged for a closer look

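Among the groups of 4 mice, 58 were examined for a single value far from the others, for the members and the genes named from the microglia lists. Chance flags about 1 in 20 such groups. No member was flagged. Tnf, an inflammatory cytokine, stood at 0.0818 CPM in anxious mouse 8 and at 0 in the other anxious mice, a level that corresponds to a few reads per library.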

How the results depend on the processing

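No member was called under any of the 17 to 19 alternatives run per comparison, in the 4 comparisons of states and the 7 behavior measures. The smallest adjusted p over those alternatives was 0.462 across the states, 0.350 for more against less anxious mice (Cx3cr1, DESeq2) and 0.191 for the 10 min ratio (Aif1, DESeq2). For more against less anxious mice 158 of 162 member values kept their sign, and the median log2 difference ran from -0.26 to -0.02. The exceptions were C1qa without mouse 2 and without mouse 7, Aif1 without mouse 3 and Trem2 without mouse 7. Cx3cr1 ran from -0.32 to -0.20, and without mice 2, 3, 7 or 10 its unadjusted p was above 0.05. With the covariate added, the Aif1 slope at 10 min was 0.15 (unadjusted p 0.0811 in edgeR), and with ranks it was 0.15 (unadjusted p 0.0718 in edgeR). The count of members without overlap stayed at 1 without TMM factors and with RLE factors, and the median r between members was 0.526 without mice 3 and 7, alternatives chosen after seeing the data. Counts over all genes depended on the tool, with edgeR against DESeq2 calling 2 and 186 genes across the states, 12 and 304 for more against less anxious, 1 and 11 for anxious against less anxious, and 0 and 48 for more anxious against anxious. For time in light they called 2 and 5, for distance 0 and 22, for open-arm time 0 and 43, for entries 0 and 38, and for the 3 ratios 4 and 165, 3 and 43, and 6 and 111. The cause was not tested. No paired analysis was possible because each mouse has its own number and belongs to 1 group.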
